A study of Mus musculus with 12 samples.

Results

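The binding of RNA polymerase II (Pol II) was examined at the simple epithelial keratin genes Krt7, Krt8, Krt18, Krt19 and Krt20 in the epithelium of the mouse duodenum. The genes were chosen by name. Of these 5 keratins, 4 were among the 6429 genes of the authors' 2 deposited comparison tables, and Krt7 was in neither table. Pol II was measured by chromatin immunoprecipitation and sequencing (ChIP-seq), with 3 libraries listed per group for wild-type (WT) villus, WT crypt and villus of mice labelled as Hnf4 alpha and gamma double knockouts (DKO), and 1 input library for each group.

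Keratins are the intermediate filament proteins of epithelial cells. A filament is built from pairs of 1 type I and 1 type II chain, so neither type forms filaments alone. Krt7 and Krt8 encode type II keratins, and Krt18, Krt19 and Krt20 encode type I keratins. In the intestinal lining KRT8 is the main type II chain and pairs with KRT18, KRT19 and KRT20. KRT20 is widely used as a marker of differentiated intestinal epithelial cells.

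All mice were adult. WT mice received the oil vehicle without tamoxifen. DKO mice received tamoxifen at 50 mg/kg per day for 2 days and were killed 1 day after the last injection. Epithelium was released in 3 mM EDTA for 35 minutes from WT tissue and for 25 minutes from mutant tissue, and crypts were separated from villi on a filter. Genotype, tamoxifen and EDTA time varied together and cannot be told apart. The strain and the driver of the Cre recombinase are not given in the sources used here, nor is it stated which libraries came from the same mouse. At the targeted genes themselves the authors' deposited table gave more Pol II to the DKO-labelled villi, at -0.54 ± 0.14 (log2 fold change ± SE, WT over DKO-labelled) for Hnf4a and -1.45 ± 0.22 for Hnf4g. The group is therefore called labelled-DKO villus, and directions that involve it rest on that label.

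The promoters of the keratins in the tables are shown because the genes differed in direction between the groups. Entries for 4 of the 5 keratins were found in the RefSeq promoter table (build GRCm38.p6), and Krt19 had none. The lines give the 250 bases before the annotated start, 5′ to 3′ on the gene's strand. Capitals mark the matches, on either strand, to 3 of the motifs described after the lines: a TATA box, a GATA type site and a KLF type site. No marked matches overlapped. Krt8, higher in villus than crypt, is shown from chr15:102004343-102004592 (minus strand), Krt18 from chr15:102027966-102028215 (plus strand) and Krt20 from chr11:99438154-99438403 (minus strand).
Krt8: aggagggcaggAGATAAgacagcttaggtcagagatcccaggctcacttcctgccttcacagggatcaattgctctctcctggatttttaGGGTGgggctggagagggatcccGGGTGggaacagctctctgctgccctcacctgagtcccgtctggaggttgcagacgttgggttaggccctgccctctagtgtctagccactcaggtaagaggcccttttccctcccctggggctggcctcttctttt
Krt18: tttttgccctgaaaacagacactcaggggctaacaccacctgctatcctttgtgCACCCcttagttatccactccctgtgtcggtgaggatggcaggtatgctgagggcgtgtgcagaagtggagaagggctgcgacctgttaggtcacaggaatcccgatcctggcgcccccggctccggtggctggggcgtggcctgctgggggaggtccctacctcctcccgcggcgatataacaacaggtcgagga
Krt20: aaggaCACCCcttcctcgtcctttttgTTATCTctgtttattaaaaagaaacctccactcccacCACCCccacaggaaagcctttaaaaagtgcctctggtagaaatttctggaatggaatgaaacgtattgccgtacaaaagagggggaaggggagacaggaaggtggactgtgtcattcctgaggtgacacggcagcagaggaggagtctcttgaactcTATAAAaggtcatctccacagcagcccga

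Of these 3 promoters, that of Krt20 alone held TATAAA (the TATA box) within the 250 bases, beginning 29 bases before the start, and 12.4% of all 32851 promoters of the same length held it on either strand. In Krt8 the same letters began 1 base before the annotated start and ran past it, outside the stretch shown. The GATA type motif, spelled AGATAA, was matched in Krt8 and, on the other strand, in Krt20, against 9.99% of all promoters. CACCC (KLF type) was matched in Krt7, Krt8, Krt18 and Krt20, against 52% of all promoters. The GC box GGGCGG was matched in Krt7 alone, against 32.7%. The letters CAAAGTCCA (an HNF4 type site, 0.384% of all promoters), TGACTCA or TGAGTCA (AP-1, 4.46%) and TTTATGG (a CDX type site, 2.43%) were not in these windows. All searches covered both strands.

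The GC content of the 250 bases was 48% in Krt20, 58% in Krt8 and 60.4% in Krt18, with a median of 52.4% over all promoters. A match is a run of letters and was not tested as a binding site.

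The keratin genes lie in the mouse keratin clusters of chromosomes 15 and 11. In the authors' coordinates (mm9, per the submitters' processing notes), the promoter window of Krt18 ran from 101858547 to 101858948 on chromosome 15, plus strand, and that of Krt8 from 101834472 to 101834873, minus strand. Their starts lay 23.9 kb apart and pointed away from each other, with no other gene's promoter window between them. The windows of Krt20 (99299166 to 99299567) and of 2 Krt19 transcripts (100004712 to 100005113 and 100006939 to 100007340) lay on the minus strand of chromosome 11. The Krt7 window, on chromosome 15 from 101242734 to 101243135, was 592 kb from Krt8 by start. No keratin window overlapped a window of another gene. Of 54 keratin genes with a promoter window, 5 were in the comparison tables, namely Krt10 and the 4 described here.

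The promoter window of each keratin transcript began 100 bases before the start and ended 301 bases after it. The gene body windows of Krt7 and Krt18, on the plus strand, began 350 bases after the start. Those of Krt8, Krt19 and Krt20, on the minus strand, began 350 bases before the start and so contained the promoter window, which made up 4.74% of the Krt8 body window, 3.79% of the Krt20 body window, and 10.8% and 6.74% of the 2 Krt19 body windows. The library counts in these windows carry no sample names and were not used. Which window the deposited comparisons counted is not stated in the tables.

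**Figure D1:**
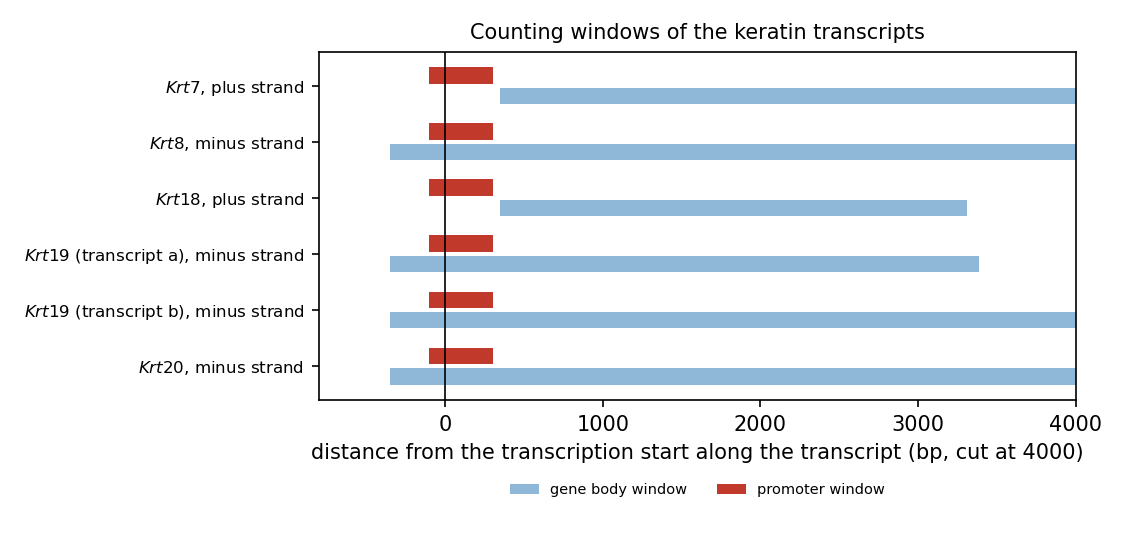
Promoter (red) and gene body (blue) counting windows of the keratin transcripts, plotted by distance in bp from each transcript's start along its direction, with long windows cut at the right edge. The body windows of Krt7 and Krt18 begin 350 bp after the start, and those of Krt8, Krt19 and Krt20 begin 350 bp before it and cover the promoter window.

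Pol II at the keratins was first compared between WT villus and WT crypt, which surveys Pol II along the axis from dividing crypt cells to differentiated villus cells. Krt20 and Krt8 had more Pol II in villus, and Krt18 and Krt19 did not pass the test. Of the 4 keratins 2 were called higher in villus and none lower (DESeq2 adjusted p under 0.05), where 18.6% of the 6429 genes were called higher and 18.8% lower. The median log2 fold change of the 4 keratins was 0.52, beside -0.04 over all genes. In bulk epithelium a change in the share of a cell type and a change in Pol II per cell cannot be told apart.

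Krt20 had a log2 fold change of villus over crypt of 2.02 ± 0.20 (SE) in the authors' deposited table (DESeq2 adjusted p 7.72e-23), which is 4.07-fold more in villus. It was the gene with the ninth largest increase in villus, with 0.124% of genes above it. Krt8, the shared type II partner, had 0.99 ± 0.27 in the authors' deposited table (adjusted p 0.00127), or 1.99-fold higher in villus. In a Wald test against log2 changes up to 0.5 Krt8 lost its call (adjusted p 0.897). The other type I genes, Krt18 and Krt19, were not called. The authors' deposited table gave Krt18 0.05 ± 0.26 (adjusted p 0.916, 95% interval -0.47 to 0.56) and Krt19 -0.49 ± 0.33 (adjusted p 0.237, interval -1.13 to 0.15).

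The second comparison was of WT villus with labelled-DKO villus, groups that also differ in tamoxifen and EDTA time. Here the type I keratins Krt18 and Krt19 had more Pol II in labelled-DKO villus, Krt20 had more in WT villus, and Krt8 was not called. Of the 4 keratins 1 was called higher and 2 lower in WT villus, where 22.4% of all genes were called higher and 29.5% lower. The keratins' median was -0.84, beside -0.08 over all genes.

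Krt19 had the largest difference of the 4. It was at -1.88 ± 0.33 (log2 fold change, WT over labelled-DKO) in the authors' deposited table, a signal 3.69-fold higher in labelled-DKO villus (DESeq2 adjusted p 5.79e-08). It stood 13th from the lowest of all 6429 genes. Krt18 followed with -1.22 ± 0.26 (adjusted p 1.02e-05) in the authors' deposited table, or 2.33-fold higher in labelled-DKO villus. Krt20 had the opposite sign, with 0.89 ± 0.19 (adjusted p 2.36e-05) in the authors' deposited table, or 1.85-fold higher in WT villus. For Krt8 the authors' deposited table gave -0.47 ± 0.27 (adjusted p 0.135), with a 95% interval of -0.997 to 0.062. In a Wald test against log2 changes up to 0.5 Krt20 lost its call (adjusted p 0.351). Krt19 kept its call in that test (0.000347), and Krt18 kept it only just under the threshold (0.0499).

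**Figure D2:**
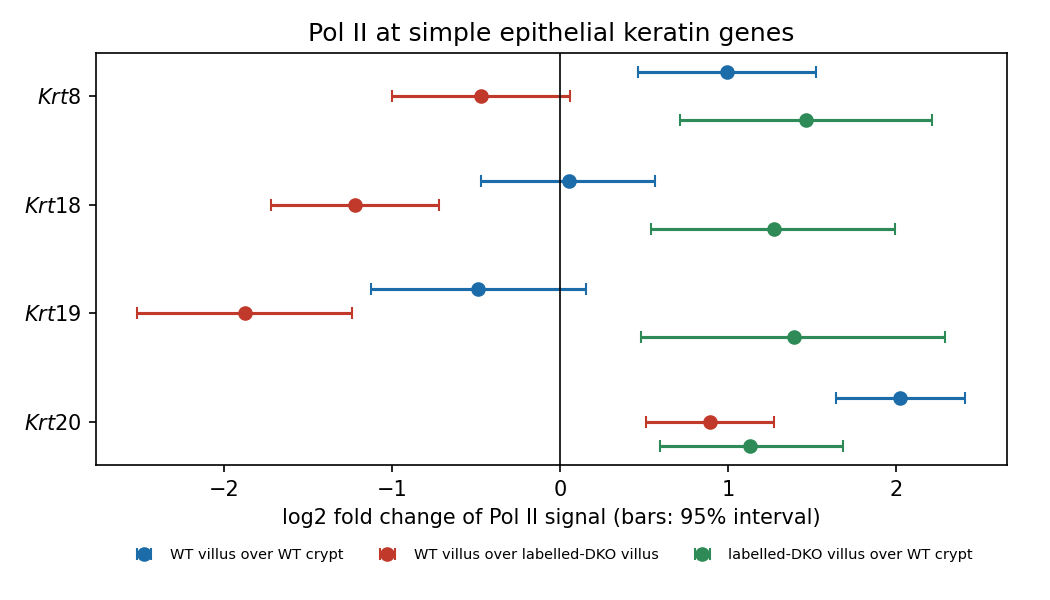
Log2 fold change of Pol II signal (x axis) for each keratin in the 3 comparisons, with points at the estimates and bars for 95% intervals. Krt20 lies right of 0 in all 3 comparisons, Krt18 and Krt19 lie left of 0 for WT over labelled-DKO villus, and all 4 keratins lie between 1.13 and 1.46 for labelled-DKO villus over WT crypt.

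The deposited tables give 1 mean signal per gene over all libraries, in counts divided by size factors, and no value per library. Group means were therefore rebuilt from that mean and the 2 fold changes, for groups of equal size. They are read within a gene only, since the length counted per gene is not stated. The rebuilt mean of Krt20 was 365 in WT crypt, 1486 in WT villus and 802 in labelled-DKO villus. Labelled-DKO villus thus lay between the WT groups. For Krt8 the rebuilt means were 337 in crypt, 670 in WT villus and 927 in labelled-DKO villus. Krt18 had 75.2, 77.7 and 181 in the same order, so its WT groups were close together and labelled-DKO villus stood apart. Krt19 had 389 in crypt, 276 in WT villus and 1018 in labelled-DKO villus. The rebuilt mean of Krt19 was lowest in WT villus, where that of Krt20 was highest. However, the difference of Krt19 between WT villus and crypt was not called (-0.49 ± 0.33, DESeq2 adjusted p 0.237). Krt19 was therefore not shown to be lower in WT villus than in crypt.

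**Figure D3:**
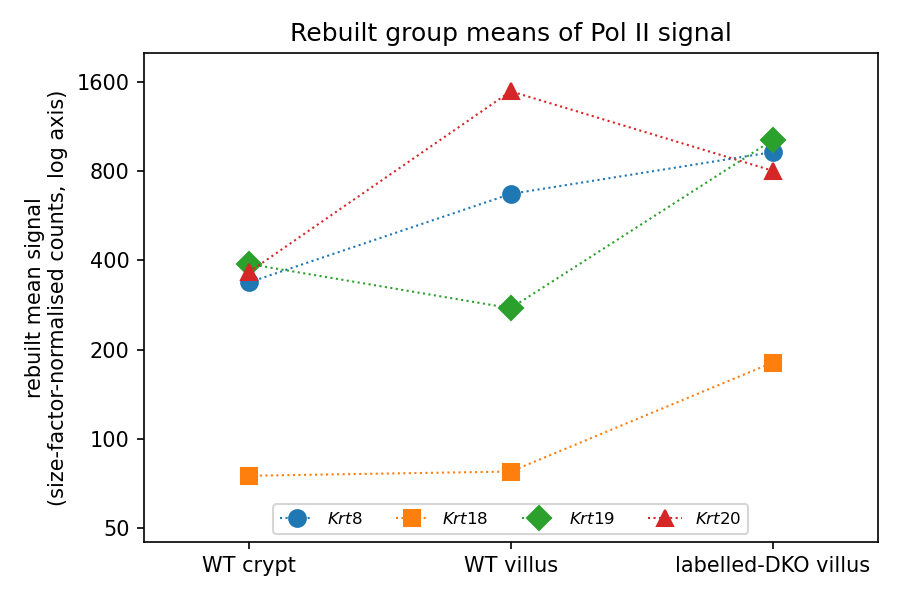
Rebuilt mean Pol II signal of each keratin in WT crypt, WT villus and labelled-DKO villus (y axis, size-factor-normalised counts on a log axis), without error bars because no library values were used, with dotted lines joining the points of 1 gene. Krt20 peaks in WT villus at 1486, and Krt8, Krt18 and Krt19 are highest in labelled-DKO villus, at 927, 181 and 1018. The difference of Krt8 between WT and labelled-DKO villus was not called.

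Labelled-DKO villus was then compared with WT crypt by subtracting 1 deposited log2 fold change from the other, with the largest standard error that independent libraries allow. All 4 keratins had more Pol II in labelled-DKO villus than in crypt, where 6.41% of all genes were called higher and 7.19% lower. The differences were 1.46 ± 0.38 for Krt8 (adjusted p 0.00218), 1.39 ± 0.46 for Krt19 (0.0242), 1.27 ± 0.37 for Krt18 (0.00724) and 1.13 ± 0.28 for Krt20 (0.000815), by a Wald test adjusted over all 6429 genes. These are folds of 2.75, 2.62, 2.41 and 2.19. Their median of 1.33 stood beside 0.00 over all genes, and 1.48% of genes or fewer lay above each of them. This comparison reuses the libraries of both deposited tables and adds no independent measurement. The tests given here used the largest standard error, which makes no allowance for the shared WT villus libraries. In a Wald test against log2 changes up to 0.5 none of the 4 was called (adjusted p 0.476, 1, 1 and 0.731 for Krt8, Krt19, Krt18 and Krt20), and Krt19 also lost its call at an adjusted p under 0.01.

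The keratins spread over 2.52 log2 units between WT villus and crypt and over 2.77 between WT and labelled-DKO villus, but over 0.33 between labelled-DKO villus and crypt. The 6 pairs of keratins were compared in each case. The errors of 2 genes in the same libraries may be correlated, so the widest possible interval was used, with both standard errors added. For villus over crypt 4 of 6 pairs differed by more than that interval, as did 4 of 6 for WT over labelled-DKO villus. Between labelled-DKO villus and crypt 0 of 6 did. Krt20 exceeded Krt19 by 2.52 (95% interval 1.49 to 3.54) for villus over crypt, and by 2.77 (1.75 to 3.79) for WT over labelled-DKO villus. Krt20 also exceeded its partner Krt8 in both, by 1.03 (0.12 to 1.95) and 1.36 (0.45 to 2.27).

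The neighbours Krt8 and Krt18, which encode a classic filament pair, were not separated at this width. Their difference was 0.95 (-0.10 to 2.00) for villus over crypt and 0.75 (-0.28 to 1.79) for WT over labelled-DKO villus. If the errors of the 2 genes were independent, these intervals would be 0.20 to 1.69 and 0.02 to 1.48. In labelled-DKO villus over crypt the difference of Krt8 from Krt20 was 0.33, with a widest interval of -0.97 to 1.62, which does not show that the keratins changed alike.

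**Figure D4:**
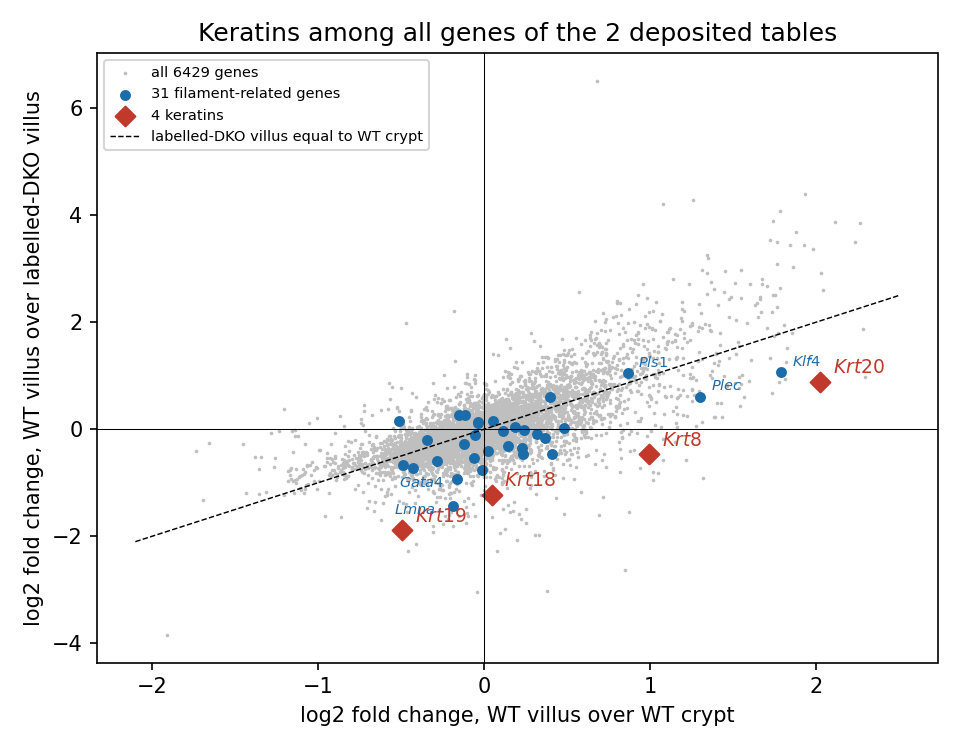
Log2 fold change of WT villus over WT crypt (x axis) against that of WT villus over labelled-DKO villus (y axis) for all 6429 genes (grey), 31 filament-related genes (blue) and the 4 keratins (red). The dashed line marks equal signal in labelled-DKO villus and WT crypt, and the 4 keratins lie below it. The axes share the WT villus libraries.

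The standard errors of the keratins were large for their signal. Those of Krt8, Krt18 and Krt19 for villus over crypt were 0.27, 0.26 and 0.33, above 95.1%, 94.3% and 98.5% of all genes, while the median over all genes was 0.14. Among the 269 genes with a mean signal close to that of Krt8 (within 0.25 on the log2 scale), the median standard error was 0.10. For Krt19 it was 0.11 over 310 such genes, and for Krt18 it was 0.14 over 1096. By rank Krt20 was nearer the rest, with a standard error of 0.20, above 79.2% of all genes. It was still larger than the median of 0.11 over 132 genes of like signal. Which libraries carry this spread was not analysed here.

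The genes whose pattern was most like that of each keratin were taken as the 3 nearest in the plane of the 2 deposited log2 fold changes. This measure covers 2 comparisons of 3 groups and says nothing of shared function. Nearest to Krt20 was Mxd1, which encodes a MAX-binding repressor, at 2.03 ± 0.26 and 0.92 ± 0.25 in the authors' deposited tables (distance 0.031), followed by Ace (0.215) and Gm11651 (0.251). Nearest to Krt8 were Emp1 (0.125), Egfl7 (0.127) and Anxa2 (0.139), the gene of a calcium-dependent membrane-binding protein. Nearest to Krt18 were Ip6k2 (0.047), Mid1ip1 (0.067) and Inpp5a (0.076). Nearest to Krt19 were Gjb1 (0.192), which encodes a gap junction protein, Pank3 (0.198) and 2210407C18Rik (0.223).

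Of 95 other genes of intermediate filaments, their linkers, junctions, regulators and chaperones, 31 were in the tables. By the authors' deposited tables, of these 31 genes 6 (19.4%) passed as higher in villus and 4 (12.9%) as lower, beside 18.6% and 18.8% of all genes. Between WT and labelled-DKO villus 5 (16.1%) were called higher in WT and 9 (29%) lower, beside 22.4% and 29.5%. Their medians were 0.02 and -0.11, beside -0.04 and -0.08 over all genes. These shares lay near those of all genes or below them. Between labelled-DKO villus and crypt 5 (16.1%) were called higher, above the 6.41% of all genes, namely Lmna, Gata4, Jup, Itga6 and Dsp. In the same comparison 2 (6.45%), Eppk1 and Cdx1, were called lower, beside 7.19%. The median was 0.29, beside 0.00 over all genes.

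Among the linkers, Plec and Pls1 were higher in villus. Plec, which encodes plectin, a linker of filaments to junctions and actin, had 1.30 ± 0.20 for villus over crypt (DESeq2 adjusted p 6.72e-10) and 0.61 ± 0.19 for WT over labelled-DKO villus (0.00466) in the authors' deposited tables. Pls1, which encodes an actin bundler of the microvillus that also binds keratin, had 0.86 ± 0.07 and 1.05 ± 0.07 in the authors' deposited tables. Of 7 linkers tested, Plec and Pls1 (28.6%, beside 18.6% of all genes) passed as higher in villus and the other 5 were not called. Between WT and labelled-DKO villus Eppk1, Plec and Pls1 (42.9%, beside 22.4%) were called higher in WT villus and Dsp, the desmosomal plakin gene (14.3%, beside 29.5%), was called lower.

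Of 2 other filament genes tested, Lmna, which encodes the nuclear A-type lamins, had -1.43 ± 0.23 for WT over labelled-DKO villus (DESeq2 adjusted p 5.54e-09) in the authors' deposited table and -0.19 ± 0.24 for villus over crypt, which was not called. Lmna alone of the 2 (50%, beside 29.5% of all genes) was called lower in WT villus. For labelled-DKO villus over crypt Lmna rose by 1.24 ± 0.33 (adjusted p 0.00267). The other gene, Lmnb2, had the opposite sign in the same 2 comparisons, at 0.27 ± 0.12 for WT over labelled-DKO villus and -0.39 ± 0.18 for labelled-DKO villus over crypt. Lmnb2 was not called in any comparison. Krt10, a type I keratin known from the epidermis, was the other keratin tested and was not called in any of the 3 comparisons, with -0.12 ± 0.19 for villus over crypt in the authors' deposited table. It was also the nearest tested gene to Krt20, 48.8 kb away by start.

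Of 6 desmosome genes tested, Jup and Pkp3 (33.3%, beside 18.6% of all genes) passed as higher in villus over crypt and none as lower. Between WT and labelled-DKO villus Jup alone of the 6 (16.7%, beside 29.5% of all genes) was called, higher in labelled-DKO villus. Jup, which encodes plakoglobin, lay 252 kb from Krt19 and had 0.41 ± 0.13 and -0.47 ± 0.13 in the authors' deposited tables. Of 3 hemidesmosome genes, Itga6 alone (33.3%, beside 29.5% of all genes) was called higher in labelled-DKO villus, with -0.53 ± 0.09 for WT over labelled-DKO villus in the authors' deposited table, and none was called between villus and crypt.

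Of 12 regulators and chaperones tested, 2 (16.7%) were called higher and 4 (33.3%) lower in villus over crypt, beside 18.6% and 18.8% of all genes. For WT over labelled-DKO villus 2 (16.7%) were called higher and 5 (41.7%) lower, beside 22.4% and 29.5%. For labelled-DKO villus over crypt 1 (8.33%) was called higher and 1 (8.33%) lower, beside 6.41% and 7.19%. Klf4, a transcription factor gene of differentiated epithelium, had the largest change of the 12. Klf4 had 1.79 ± 0.23 for villus over crypt (DESeq2 adjusted p 3.51e-13) and 1.07 ± 0.23 for WT over labelled-DKO villus (1.32e-05) in the authors' deposited tables. Klf5, a related factor linked to proliferating crypt cells, had -0.01 ± 0.20 and -0.76 ± 0.20 in the authors' deposited tables, and only the second was called. Cdx2, an intestinal identity factor gene, was called higher in villus and in WT villus, at 0.40 ± 0.09 and 0.59 ± 0.09 in the authors' deposited tables. Gata4 was called lower in WT villus against labelled-DKO villus, at -0.92 ± 0.08 in the authors' deposited table, and higher in labelled-DKO villus against crypt, at a computed 0.76 ± 0.11. Ywhae, a 14-3-3 gene, and Bag1 were called lower in villus than crypt and lower in WT than labelled-DKO villus. Hspa8, a constitutive heat shock protein gene, was called between WT and labelled-DKO villus, at -0.72 ± 0.25 in the authors' deposited table, and Cdx1 between villus and crypt, at -0.51 ± 0.16. Trp53 was also called lower in villus than crypt.

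**Figure D5:**
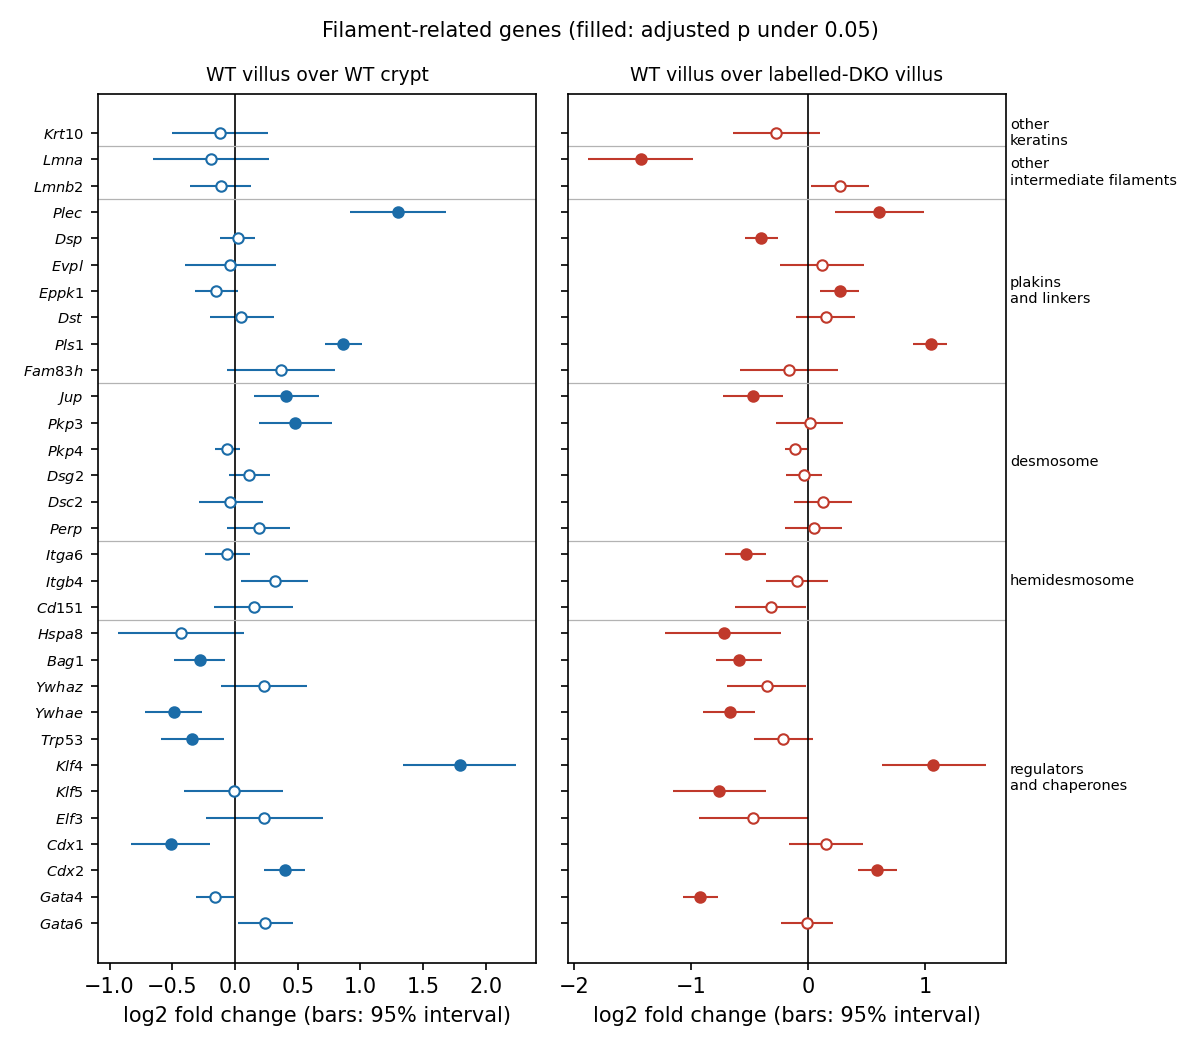
Log2 fold change with 95% interval for the 31 filament-related genes, by group, for WT villus over WT crypt (left) and WT villus over labelled-DKO villus (right), with filled points for an adjusted p under 0.05. Klf4, Plec and Pls1 lie right of 0 in both panels, and Lmna stands at -1.43 in the right panel.

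Of the genes nearest to the keratins on the chromosome, Eif4b, a translation factor gene 45.6 kb from Krt18 and 69.4 kb from Krt8, had -0.63 ± 0.13 for villus over crypt and -0.66 ± 0.13 for WT over labelled-DKO villus in the authors' deposited tables. Eif4b was called in both, lower in villus than crypt, while Krt8 was higher. Eif1, 174 kb from Krt19, was called higher in villus at 0.67 ± 0.14 in the authors' deposited table and was not called between WT and labelled-DKO villus.

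Markers of the cell types were read beside the keratins. In the authors' deposited tables all 10 enterocyte markers tested of 11 passed as higher in villus (range 0.93 to 2.11, beside 18.6% of all genes) and likewise passed as higher in WT villus in the second table (0.49 to 4.39, beside 22.4%). For labelled-DKO villus over crypt 1 (10%) was called higher and 3 (30%) lower, beside 6.41% and 7.19% of all genes, with a median of -0.83, where the keratins' median was 1.33. All 7 goblet markers were tested. Of these 4 (57.1%) passed as higher and 2 (28.6%) as lower in villus over crypt, beside 18.6% and 18.8% of all genes. Between WT and labelled-DKO villus Clca1, Spink4 and Agr2 (42.9%, beside 29.5%) passed with more signal in labelled-DKO villus, and the other 4, of which Muc2 (0.15) and Tff3 (0.17) had the opposite sign, were not called. For labelled-DKO villus over crypt 3 goblet markers (42.9%, beside 6.41%) were called higher and none lower (range 0.09 to 0.99). Both proliferation markers tested of 9 were called lower in villus than crypt (100%, beside 18.8% of all genes). The 2 crypt stem markers tested of 9 were likewise called lower there. Pcna and Ccnd1, the proliferation markers, were also higher in labelled-DKO villus, at -0.62 and -0.74 (WT over labelled-DKO) in the authors' deposited table, beside 29.5% of all genes. Neither crypt stem marker was called there. For labelled-DKO villus over crypt Pcna (-0.32) and Ccnd1 (0.18) were not called. The crypt stem marker Sox9 was called lower, at -0.93 ± 0.26 (50%, beside 7.19% of all genes), and Axin2 (-0.11) was not called. The tuft marker Avil and the enteroendocrine marker Chga, 1 of 4 and 1 of 3 in the tables, were not called in any comparison. Of 6 immune markers Cd74 alone was in the tables, at 0.72 ± 0.24 and 1.33 ± 0.24 by the authors' deposited tables, called higher in villus and in WT villus. None of the Paneth, mesenchyme, endothelium and mesothelium markers was in the tables. The part of these cell types in the keratin values was not tested.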

How the data were processed

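Pol II ChIP-seq libraries of mouse duodenal epithelium are listed for 3 groups of 3, with 3 inputs. Per the submitters' processing notes, reads were aligned to mm9 with Bowtie2 2.2.6 and compared with DESeq2 1.36.0. The authors deposited, per the file headers of 2 comparison tables, for each of 6429 genes a log2 fold change and its standard error, the Wald score and p-value with its adjustment, and a mean signal in counts divided by size factors. The gene filter, size factors, window and libraries in that fit are not stated. If the samples of a group are not separate animals, p-values measure only the spread between samples.

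Window tables were made with featureCounts 2.0.3 (read pairs, mapping quality at least 30, no strand option), per the file headers. Their 18 columns of per-library counts have no names and were not used, so depth is unknown and no test on library counts was run. Window positions were used, and 96.8% of promoter windows were matched to a gene symbol through RefSeq.

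Intervals are ± 1.96 standard errors. The signs of the tables were checked from the standard errors: inverse group means explained 90.1% of the sum of squares of the difference in squared standard errors with both signs as named, 51.6% with the first alone reversed, and 1.54% or less with the second alone or both reversed. Python 3.11.15 with scipy 1.17.1 was used. Filament-related genes were named by the 12 largest changes in either table, beside the neighbours of keratins and members called in the smaller groups. Lmnb2 and Trp53 were named to complete their groups. The members and lists were chosen with earlier results of these data known. Comparisons between keratins were added after their values were seen.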

Additional observations from a re-analysis of the deposited data

How the results depend on the processing

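Of the 4 keratins, the calls and directions were the same after centring each table on its median. They were also the same with genes of a mean signal of at least 100. With an adjusted p under 0.01 Krt19 lost its call for labelled-DKO villus over crypt (1.39, adjusted p 0.0242). With a log2 fold change over 1 also required, Krt8 lost its call for villus over crypt (0.99), leaving 1 keratin in place of 2, and Krt20 lost its call for WT over labelled-DKO villus (0.89). In a test against changes up to 0.5 the same 2 calls were lost, with adjusted p-values of 0.897 and 0.351, again leaving 1 keratin for villus over crypt. Krt18 kept its call for WT over labelled-DKO villus at an adjusted p of 0.0499, just under the threshold. In that test labelled-DKO villus over crypt had 0 keratins called in place of 4, with Krt8 at 1.46 (adjusted p 0.476), Krt18 at 1.27 (1), Krt19 at 1.39 (1) and Krt20 at 1.13 (0.731). The count over all genes fell from 874 to 90 there. A rebuilt standard error that allows for the shared libraries gave 1947 at an adjusted p under 0.05, with all 4 keratins called. The test against changes up to 0.5 was not run with the rebuilt standard error. For the other comparisons the limit of 1 gave 285 genes in place of 2403 and 559 in place of 3338, and the test against 0.5 gave 252 and 637. For labelled-DKO villus over crypt an adjusted p under 0.01 gave 558 and the limit of 1 gave 223. The stricter settings ask for a larger change by construction. No paired analysis was possible because the count columns carry no sample names and the deposited tables hold no library values. For the same reason leaving out replicates, other normalizations and tools, filters on counts, 2-group fits and other transcripts were not run. No keratin value is checked against the loss of 1 library.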

Other observations

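Over all transcripts the gene body windows differed by strand in the way described for the keratins. Each of the 21190 minus-strand transcripts with both windows had a gene body window that began 350 bases before its start and contained its promoter window, and 0 of the 19858 plus-strand transcripts did, their body windows beginning 350 bases after the start. Genes of the comparison tables lay on both strands, 3336 of them on the minus strand and 3052 on the plus strand among those matched. A ratio of promoter to gene body counts would therefore not be made of the same parts on the 2 strands, and Krt8 and Krt18 could not be set side by side in that measure. Whether the deposited fold changes rest on these windows is not stated.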
